A study of Caenorhabditis elegans with 4 samples.

Results

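The regions described here are the MSH-5 ChIP peaks on chromosome III of Caenorhabditis elegans. They are all rows for III in the peak list deposited for the whole series, called the combined list here, with no cutoff on score. The rule gives 583 peaks of 3271 in all, or of 3269 on the 6 nuclear chromosomes. The samples are 2 libraries of DNA immunoprecipitated with the rabbit polyclonal antibody SDQ3853 against MSH-5, numbered replicate 1 and 2, and 2 libraries of input DNA, the chromatin before immunoprecipitation. All 4 came from fem-2(b245) animals labelled hermaphrodite, young adult with a germline, and kept at 20 °C. The genotype label places the mutated gene itself on III. fem-2 promotes male sexual fate and b245 is a temperature-sensitive allele, and all samples carry it, so no comparison between genotypes can be made. The protocol describes whole adults harvested when gravid, and the extracts therefore mix germline and somatic nuclei. For all 4 samples the records give 20 min of crosslinking with the crosslinker EGS and 10 min for EGS with formaldehyde. ChIP here means that DNA crosslinked to the protein was pulled down with the antibody, and a peak is a stretch where the caller scored more reads than background.

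MSH-5 forms a heterodimer with HIM-14/MSH-4 in meiotic nuclei. The complex binds recombination intermediates and is required for them to become crossovers, the exchanges that hold homologous chromosomes together until they separate. Crossovers in this species fall more often on the outer arms of a chromosome than in its gene-rich centre. Chromosome III also has a pairing centre near its left end, a region that the zinc-finger protein ZIM-1 binds and through which the homologues recognise each other.

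Each ChIP library has a peak list of its own, and these lists show how far a combined peak was also found in 1 library. On III, replicate 1 had 169 peaks of 1066 in its list and replicate 2 had 249 of 1620. The deposited scores of both replicate lists start just above 50, while those of the combined list on III ran from 1.54 to 100.33, so scores were ranked within a list only. The scale of neither kind of score is given in the sources used here. Read depth is unknown, and so is whether the combined list was called on pooled reads. Whether the replicates were separate cultures is not in the labels. Peaks of 1 chromosome are not replicates and lie in clusters, so no p-value was computed over them, and differences between III and the other chromosomes are given as values that were not tested. Intervals are exact 95% Clopper-Pearson intervals and cover the counting of peaks only. All coordinates are on III, in the WormBase WS220 build that the file headers name.

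Chromosome III carried more combined peaks per Mb than the rest of the nuclear genome, and most of the surplus was peaks that neither replicate list held. III had 42.3 peaks per Mb, against 31.1 per Mb on the other 5 chromosomes together, which ranged from 27.3 to 35.8. The difference was 11.2 peaks per Mb. Peaks found in neither replicate list made up 7.70 of it, or 68.5%, with 22.2 per Mb on III against 14.5 elsewhere. On the other chromosomes such peaks were 46.7% of the combined peaks. Peaks found in both lists made up 1.53 of it, with 8.78 per Mb on III against 7.25 elsewhere. Those found in replicate 2 only made up 1.45 and those in replicate 1 only 0.558, so III was higher in every class. The order held in the replicate 2 list, with 18.1 peaks per Mb on III against 14.6 to 17.0 on the single other chromosomes. In the replicate 1 list III had 12.3 per Mb, and 4 of the 5 other chromosomes were lower.

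**Figure D1:**
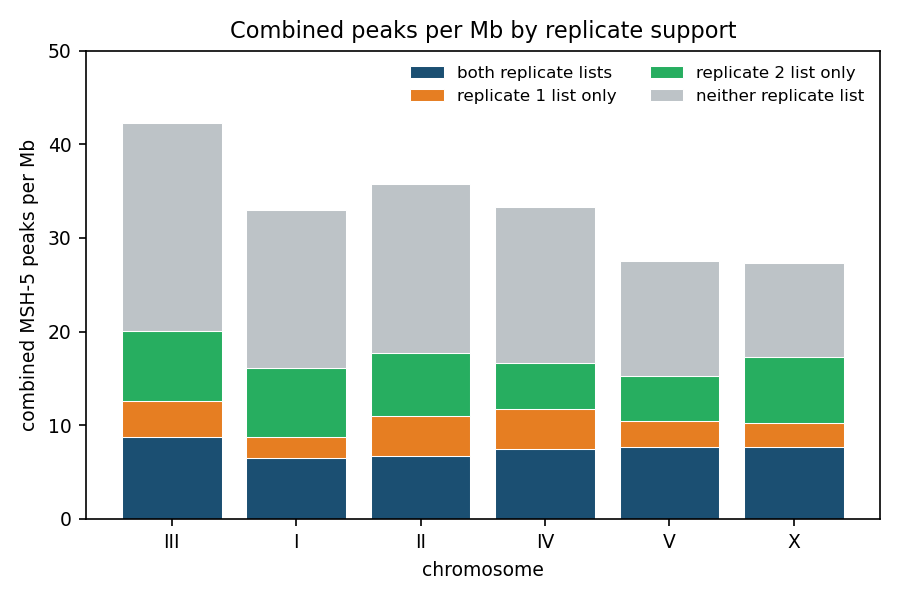
Combined MSH-5 peaks per Mb of chromosome (y axis) for III and the other nuclear chromosomes (x axis), stacked by whether a peak overlapped a peak of both, of 1 or of neither replicate list. III is the highest bar at 42.3 per Mb, and its segment of peaks found in neither list is the largest of the 6 at 22.2 per Mb.

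The surplus lay in the lower and middle part of the score range. Scores of all nuclear combined peaks were split at their quartiles, 4.17, 6.29 and 11.23. Between 6.29 and 11.23, III had 12.3 peaks per Mb and the rest 7.62, the widest difference of the 4 score classes. At 11.23 and above, III had 9.14 per Mb and the rest 8.0. Above a score of 20 the order turned round, with 46 peaks or 3.34 per Mb on III against 4.14 per Mb elsewhere. Above 50, III had 8 peaks, or 0.580 per Mb, against 1.36 per Mb elsewhere. Its best score of 100.33 was the lowest best score of the 6 chromosomes, and 6 of the best 100 nuclear peaks lay on III. The median score was 6.29 on III and 6.29 on the rest.

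Just over 1 in 5 of the III peaks was found in both ChIP libraries. Of the 583 peaks, 121 overlapped a peak in both replicate lists, or 20.8% (95% interval 17.5 to 24.3), where the share over all nuclear peaks was 22.9%. A further 306, or 52.5% (48.3 to 56.6), were found in neither list, against 47.7% over all nuclear peaks and 46.7% on the other chromosomes together. The 104 peaks found in replicate 2 only made up 17.8%, where the nuclear share was 19.3%. Only 52 peaks, or 8.92%, were found in replicate 1 only, where the nuclear share was 10.1%. The share found in both is thus close to the background, and the share found in neither is above it by less than 5 points.

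Support went with score and width. A wider peak more easily meets the required overlap of 1 bp, so a link with width is partly built in. The 3 lists come from the same series and are not independent. Peaks found in both lists had a median score of 16.13 and a median width of 541 bp. Peaks found in neither had a median score of 4.735 and a median width of 203.5 bp, and they held 31.1% of the peak bases on III. In the best-scored 25% of the III peaks 85 of 146, or 58.2%, were found in both lists and 10, or 6.85%, in neither, where the other chromosomes together had 66.8% and 4.02%. In the lowest-scored 25% 4 of 145, or 2.76%, were found in both and 127, or 87.6%, in neither, where the others had 6.11% and 76.9%. The other chromosomes thus showed the same gradient with score. Their 25% classes were cut separately, and the best-scored 25% began at 10.31 on III and at 11.6 elsewhere. Wide peaks were few: 29 of 583 were 1 kb or wider, or 4.97%, and 27 of these were found in both lists. On the other chromosomes 8.19% were that wide. The Spearman rho of score and width over the 583 peaks was 0.59, a description across peaks that share their libraries.

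**Figure D2:**
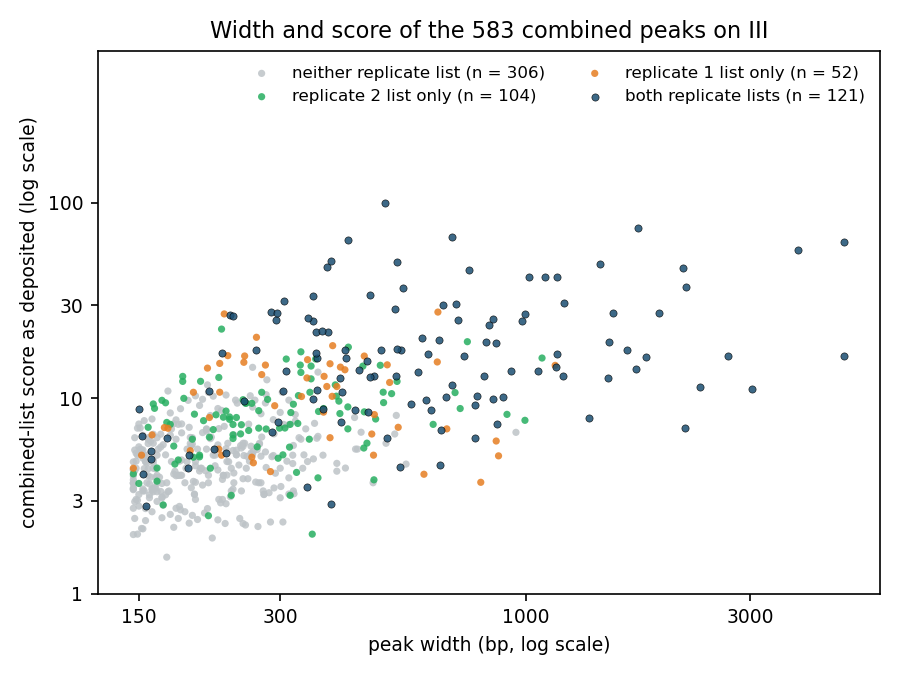
Width in bp (x axis, log scale) and deposited combined score (y axis, log scale) of the 583 combined peaks on III, 1 point per peak, coloured by the replicate lists in which it was found. The 306 peaks found in neither list sit low and narrow, at a median of 203.5 bp, and peaks of 1 kb or wider spread over scores of 7.08 to 74.39.

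The best-scored site of III lay on the left arm and was a group of sharp neighbouring peaks. The peak at 1925009 to 1925509 was 501 bp wide with a combined score of 100.33, rank 41 of the nuclear list. It scored 689.46 in replicate 1, above 83.4% of that list, and 1242.28 in replicate 2, above 95.2%. The other 3 peaks of the group were the third best of III, at 1920937 to 1921633 with a score of 67.11, one at 1923473 to 1923825 with a score of 24.97, and one at 1926406 to 1926782 with a score of 47.01. All 4 were found in both lists, and they are not shown to be separate sites.

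The second best site lay closer to the left end, at 834513 to 836247, with a combined score of 74.39. It is one of the few III sites that ranked high in all 3 lists, where it scored 1854.27 (replicate 1) and 1897.68 (replicate 2), above 93.5% and 97.1% of these lists. No read counts are given behind these scores.

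In the left part of the centre, the widest combined peak spanned 3862907 to 3867671, 4765 bp, with a score of 62.72. It overlapped 3 peaks in each replicate list, of which the best scored 3100 in replicate 1 and 2562.37 in replicate 2. A score of 3100 is shared by several peaks of replicate 1 and does not rank them. The next wide site of the centre, at 5940312 to 5944102, scored 57.06 in the combined list and 3100 in replicate 1. The replicate 2 list gave it bounds of 5939192 and 5944505 and its top score, 3105.66.

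Other well-scored sites lay further to the right. The best of the right arm spanned 11581237 to 11581654, 418 bp, with a combined score of 64.91. It scored 527.82 in replicate 1 and 215.46 in replicate 2, above 79.2% and 72.6% of these lists. The site at 13643405 to 13643789, close to the right end, scored 50.45, with 297.93 in replicate 1 and 164.86 in replicate 2. These scores were above 65.5% and 65.7% of their lists. The best site of the right centre spanned 8441154 to 8442593, 1440 bp, with a score of 48.5. The 15 best III peaks were all found in both lists, and 4 lay on the left arm, 7 in the centre and 4 on the right arm, the arms being the outer 25% of the length on each side.

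The combined list ranked the sites of III in another order than the replicate lists did. Of the 15 best III peaks of replicate 1, 12 overlapped one of the 15 best of replicate 2, while of the 15 best combined peaks 7 overlapped one of the 15 best of replicate 1 and 7 one of the 15 best of replicate 2. Of the 5 widest combined peaks, 3 stood lower in the combined list than in either replicate list, though their combined scores were above the III median of 6.29. The peak at 2497125 to 2501887 scored 16.47 in the combined list, rank 507. In replicate 1 it scored 3100, and in replicate 2 it scored 1800.81, above 97.0% of that list. The peak at 1017462 to 1020491 scored 11.22 combined, rank 819, against 1748.13 in replicate 1 and 570.6 in replicate 2. The peak at 3334303 to 3336993 scored 16.47 combined, 1083.38 in replicate 1 and 1381.49 in replicate 2. Over the 121 peaks found in both lists, the Spearman rho of the combined score was 0.28 with the best overlapping replicate 1 score and 0.30 with that of replicate 2. A replicate peak divided into several combined peaks enters these more than once, such as the replicate 1 score of 220.77, which enters 9 times. With each replicate peak taken once, beside its best combined peak, rho was 0.48 over 108 replicate 1 peaks and 0.36 over 121 replicate 2 peaks, a form chosen after seeing the data. The median width was 1016 bp for the 15 best combined peaks, 2794 bp for those of replicate 1 and 1730 bp for those of replicate 2.

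The replicate libraries gave many of the same places on III. Of 169 replicate 1 peaks 115 overlapped a replicate 2 peak, or 68.0% (60.4 to 75), where the nuclear share was 65.8%. Of 249 replicate 2 peaks 127 overlapped a replicate 1 peak, or 51.0% (44.6 to 57.4), where it was 51.2%. Both shares are near the background. Sharing rose with score within each list: in replicate 1, 40 of the 43 best-scored peaks and 15 of the 42 lowest-scored were shared, or 93.0% and 35.7%, and on the other chromosomes 93.8% and 33.5%. In replicate 2 they were 52 of 63 and 21 of 62, or 82.5% and 33.9%, and on the other chromosomes 87.5% and 24.9%. The rise was thus also present on the other chromosomes, whose 25% classes were cut separately and at higher scores. The best-scored 25% of replicate 1 began at 271.55 on III and at 458.7 elsewhere, and that of replicate 2 at 204.91 and 247.63. The 2 lists had 85195 bp in common, or 49.7% of the bases that either covered on III. The range over the other chromosomes was 41.0% to 51.1%.

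The 2 lists gave 131 overlapping pairs of peaks on III, in which a peak can enter more than once. Their midpoints lay a median of 64 bp apart, and in 10% of the pairs 511.5 bp or more, where over all nuclear pairs these distances were 79 and 684 bp. In 88 of the pairs at least 0.5 of each peak lay inside the other, a choice that by itself keeps midpoints close and widths alike. Score rose with width within each list on III, with a Spearman rho of 0.76 in replicate 1 and 0.79 in replicate 2. The choice can therefore by itself also raise the rho of the replicate scores. The Spearman rho of the replicate scores was 0.59 over all 131 pairs and 0.83 over the 88, against 0.42 and 0.78 over all nuclear pairs. Such correlations run across peaks, not samples, and carry no p. Replicate 1 peaks were the wider ones in 69 of the 88 pairs, or 78.4%, where the nuclear share was 68.6%. Scores disagreed in both directions, in examples picked out after their values were seen. The replicate 1 peak at 424673 to 426440 scored 1817.41, and the best of the 4 replicate 2 peaks it overlapped scored 142.83. The other way round lay the peaks at 6508573 to 6510302, with 1228.53 in replicate 2 and 271.55 in replicate 1, and at 8652240 to 8653832, with 1130.05 in replicate 2 and 146.39 in replicate 1.

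**Figure D3:**
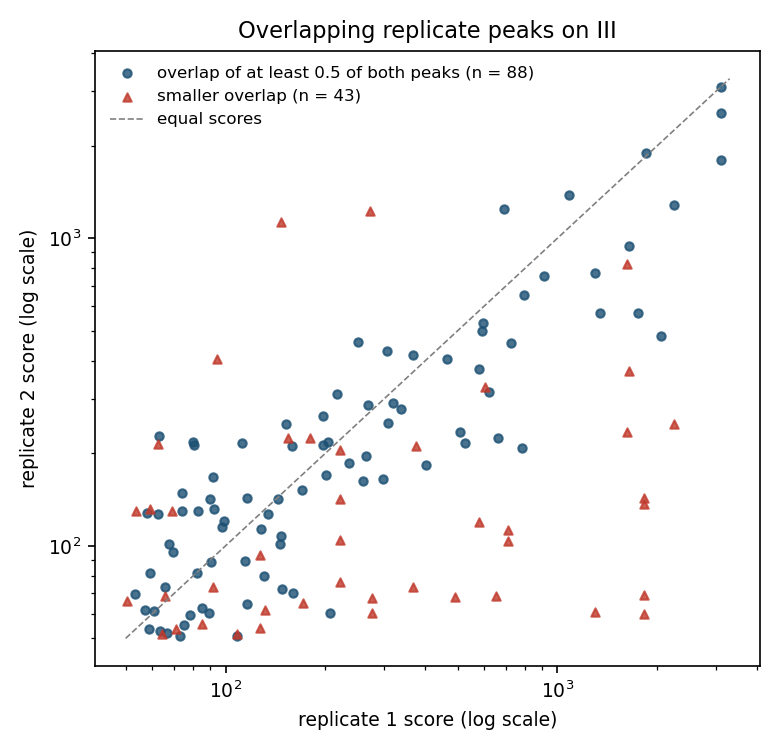
Deposited scores of overlapping peaks on III in replicate 1 (x axis) and replicate 2 (y axis), both on log scales, 1 point per pair; circles are the 88 pairs that overlap by at least 0.5 of both peaks, triangles the other pairs, and the dashed line marks equal scores. The circles, chosen by an overlap that keeps widths alike, have a Spearman rho of 0.83, and some triangles lie far from the line on both sides.

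Peaks of 1 library alone did not reach the top of their lists. Counting only peaks with no peak of the other list within 500 bp, replicate 1 had 51 such peaks of 169 on III, where the nuclear share was 28.1%, and replicate 2 had 116 of 249, where it was 44.3%. This leaves out a replicate 1 peak with a score of 701.2, which overlapped no replicate 2 peak but had one within 500 bp. The best of replicate 1 spanned 599286 to 600148 and scored 327.79, above 68.3% of its list, and the nearest replicate 2 peak was 146912 bp away. The next, at 9533996 to 9534551, scored 322.79. The best of replicate 2 spanned 4491182 to 4492053 and scored 489.05, above 87.0% of its list, with the nearest replicate 1 peak 71397 bp away. Further replicate 2 peaks at 6900216 to 6900880 and 9824495 to 9825247 scored 405.39 and 374.26. The 5 best such peaks of each replicate, not all given here, each overlapped a combined peak, with combined scores of 6.98 to 19.49.

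The replicates placed their peaks differently along the chromosome. The length was cut into 4 equal stretches, the left arm, left centre, right centre and right arm, so an even spread puts 50% of the peaks on the arms. The combined list had 255 of 583 III peaks on the arms, or 43.7% (39.7 to 47.9), where the nuclear share was 46.3%. Replicate 1 had 84 of 169 there, or 49.7% (41.9 to 57.5), where its nuclear share was 54.1%. Replicate 2 had 88 of 249, or 35.3% (29.4 to 41.6), where its nuclear share was 43.6%. From left to right, the 4 stretches held 42, 47, 38 and 42 replicate 1 peaks. They held 47, 86, 75 and 41 replicate 2 peaks. Replicate 1 was thus near even, and replicate 2 was higher in both central stretches than on either arm.

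The difference between the lists had to lie in the peaks that they did not share. Of these, 33 of 54 in replicate 1 lay on the arms, or 61.1% (46.9 to 74.1), where the nuclear share was 61.1%. In replicate 2 it was 31 of 122, or 25.4% (18.0 to 34.1), where the nuclear share was 36.8%. Shared peaks are the same places counted in each list, so their arm shares, 44.3% counted in replicate 1 and 44.9% in replicate 2, had to be close. The combined peaks found in both lists had 38.8% on the arms (30.1 to 48.1), where the nuclear share was 47.6%. Those found in neither had 49.3% (43.6 to 55.1), where it was 46.5%. The III peaks are a part of the nuclear lists they are set beside, and these intervals take each peak as independent. Of the III peaks found in both lists, 9 in the left centre lie beneath a single replicate 1 peak, and the arm share counts each of them.

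The combined peaks were unevenly spread over 10 equal bins of the length, with the sparsest and the densest bin side by side at the right end. Bin 9, from 11026985 to 12405357, held 33 peaks or 23.9 per Mb, and bin 10, from 12405358 to 13783731, held 78 or 56.6 per Mb. Of the 78, 9 were found in both lists and 48 in neither, where the whole chromosome had 121 and 306 of 583. A further 12 were found in replicate 1 only, out of 52 such peaks on the whole chromosome. Of these 12, 5 lie in a single group of 10 neighbouring peaks. The other bins held 44 to 68 peaks. Bin 1, at the end that carries the pairing centre, held 48 peaks, of which 15 were found in both lists. Bin 4 held 19 peaks found in both, but 9 of them lie beneath a single replicate 1 peak. In bin 1, 2 of the peaks found in both also lie beneath a single replicate 1 peak, and no bin count is corrected for this. Bin 9 held 6.

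**Figure D4:**
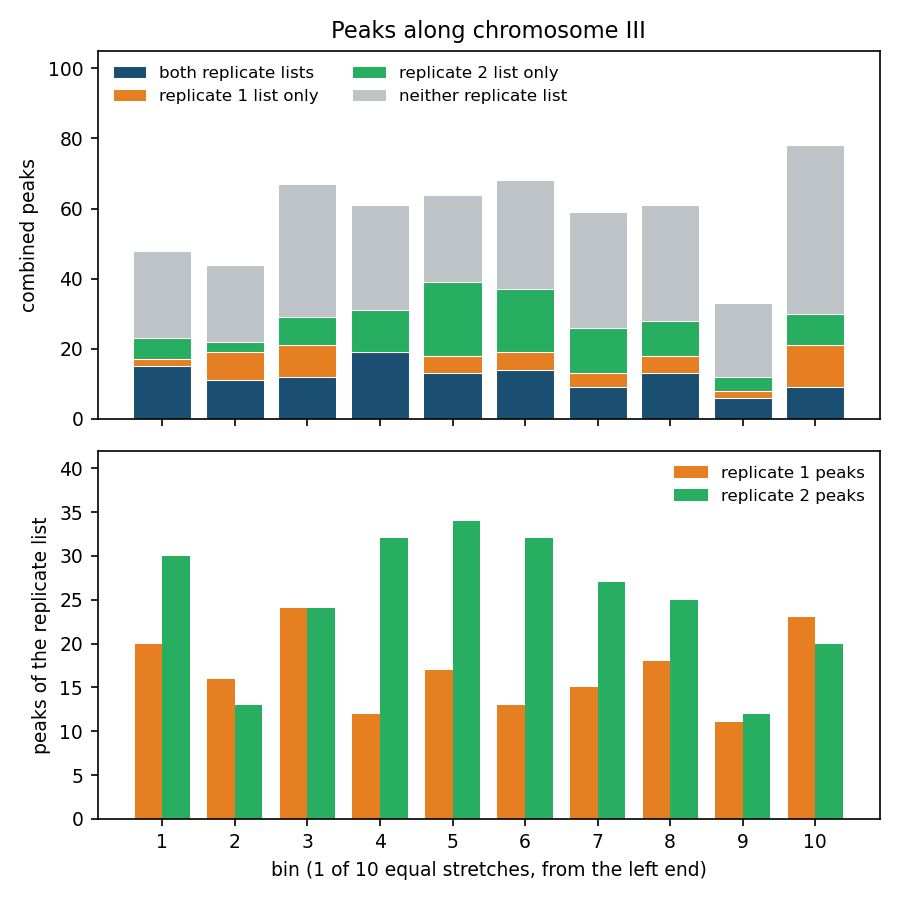
Number of peaks (y axes) in 10 equal bins of the length of III from the left end (x axis): combined peaks stacked by replicate support above, and peaks of the replicate lists below. Bin 10 has the most combined peaks, 78, next to bin 9 with 33, and replicate 2 exceeds replicate 1 most in bins 4 to 6.

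Close neighbours were slightly less frequent on III than over all nuclear peaks, and linking peaks with gaps under 2 kb left 399 groups. Of 582 gaps 184 were under 2 kb, or 31.6% (27.9 to 35.6), where the nuclear share was 35.8%. The range over the other chromosomes was 29.0% to 42.5%. Groups of 2 or more held 289 of the 583 peaks, or 49.6%, where the nuclear share was 53.9%. Groups of 4 or more held 89 peaks, or 15.3%, where it was 20.9%. On III 294 peaks stood alone. Counted as groups, III had 28.9 per Mb and the single other chromosomes 17.2 to 23.4.

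The largest groups differed in what the replicate lists showed beneath them. The group of 10 peaks at 13590823 to 13598931 had combined scores of 3.67 to 6.57 only. Replicate 1 had 5 small peaks there, scoring 51.06 to 97.77, and replicate 2 had none. Without this group bin 10 would hold 68 peaks, or 49.3 per Mb. The group of 9 peaks at 5353258 to 5358101 scored 2.89 to 10.12, and it lay beneath a single replicate 1 peak of 5564 bp that scored 220.77 and beneath 4 replicate 2 peaks that scored 75.96 to 204.91. All 9 thus count as found in both lists, although they are 1 region in replicate 1. The group of 7 at 3862907 to 3873009 joined the widest peak of III to 6 smaller ones, of which 4 were found in neither list.

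**Figure D5:**
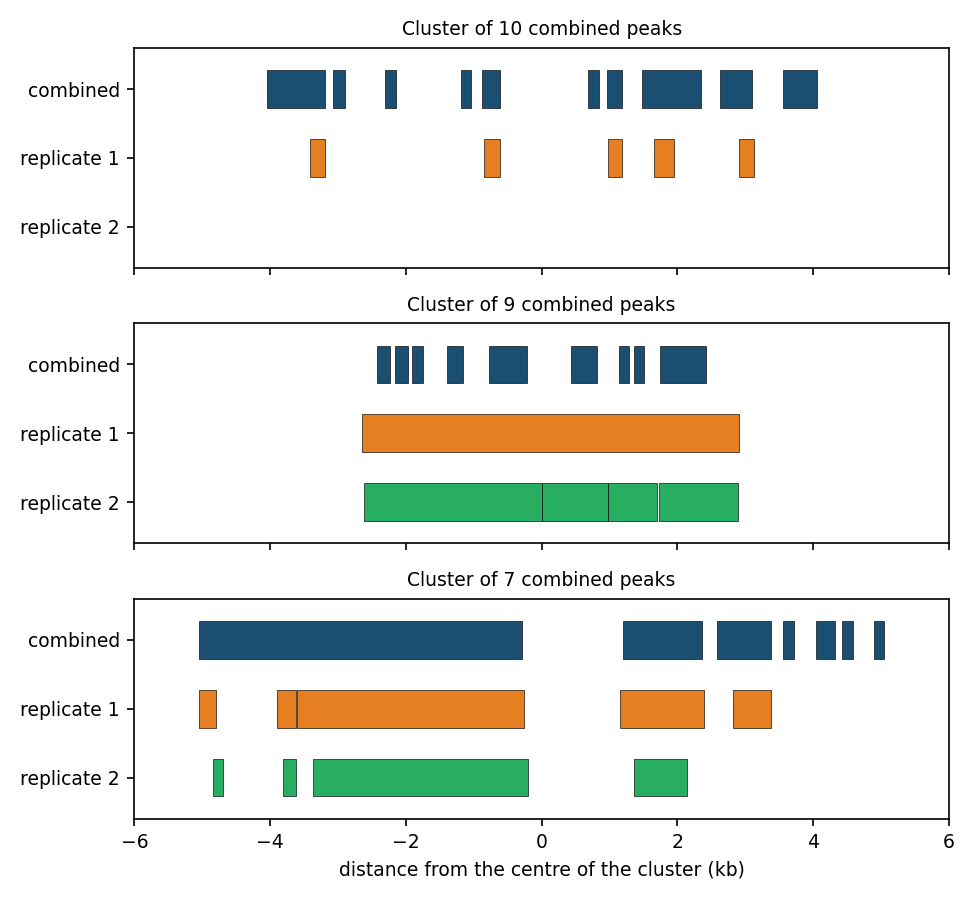
Peaks of the combined, replicate 1 and replicate 2 lists (rows) in the 3 largest groups of combined peaks on III, drawn to scale against the distance from the centre of each group in kb (x axis). The group of 10 has 5 small replicate 1 peaks and no replicate 2 peak, and the group of 9 lies beneath 1 replicate 1 peak of 5564 bp.

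Single replicate peaks were divided into several combined peaks at a few places. On III 11 of 169 replicate 1 peaks overlapped 2 or more combined peaks, where the nuclear share was 8.54%, and 13 of 249 replicate 2 peaks did, where it was 5.99%. The replicate 1 peak at 2077586 to 2082707, singled out after its values were seen, scored 1340.69 and overlapped 4 combined peaks whose best score was 8.74. Of the replicate 1 peaks on III 92.9% (87.9 to 96.3) overlapped a combined peak, where the nuclear share was 94.0%. For replicate 2 it was 89.2% (84.6 to 92.7), where the nuclear share was 90.0%.

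At the left end both replicate lists had a peak starting at position 1, from 1 to 222 with a score of 250.04 in replicate 1 and from 1 to 211 with a score of 460.75 in replicate 2, while no combined peak overlapped either. The first combined peak spanned 62095 to 64289 with a score of 37.16 and was found in both lists. At the right end the last combined peak, at 13783371 to 13783731 with a score of 13.62, was found in neither list. Its end was taken as the end of III, and whether it runs past the true end in this build was not checked. It was the second best of the peaks found in neither, after one at 3067941 to 3068202 with a score of 14.41. The last replicate 1 peak ended at 13782960 and the last replicate 2 peak at 13717769.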

How the data were processed

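The authors deposited 3 peak lists, 1 for each ChIP library and 1 for the series. The submitters' processing notes name BWA and the build ce10. WormBase WS220 is the build in the file headers, and each peak's score was deposited by the authors, from MACS for the replicate lists and MACS v2 for the combined list, per the source columns. Chromosome length was taken as the end of the last peak in any list and was not checked against sequence. The gene table at hand is of another build, so no genes or bases are given at the peaks. Mitochondrial peaks were left out.

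Peaks that had 1 bp or more in common counted as shared. Shares and exact intervals were computed with Python 3.11.15, pandas 2.3.3 and scipy 1.17.1. The code for overlaps, merging and gaps of peaks was tested on simulated data, and that for the exact intervals was not. No test was run, since the series has 1 condition. Most named peaks were drawn from sets fixed by rule, of which not every member is given. The sets by score are the 15 best, the best of each 25% of the length, and the 5 best in neither list. Further sets are the 5 best of each replicate alone, the 5 largest groups, the 5 widest, and the first and last. The members and rules were chosen with earlier results of these data known.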

Additional observations from a re-analysis of the deposited data

How the results depend on the processing

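Of 38 alternatives over 9 results, 12 stayed close and 26 moved, where close means within the main interval for a share, and within 1.5 times the main value for peaks per Mb and the rho. When 0.5 of both peaks had to overlap, the share of III combined peaks found in both lists was 11.8% and in neither 64.7%, and the shared percentage was 52.1% for replicate 1 and 35.3% for replicate 2. With the better-scored 50%, these were 36.3%, 24.7%, 85.9% and 68.8%, peaks per Mb were 21.3, and gaps under 2 kb were 20.6%. Found in a single replicate list, an alternative chosen after seeing the data, were 29.7% to 38.6% of the peaks, and absent from it 61.4% to 70.3%. Peaks per Mb were 12.3 to 18.1 in the single lists, 8.78 for peaks found in both and 20.2 merged within 10 kb. III stayed above the 5 other chromosomes in each of these but the replicate 1 list, where it was above 4. The arm share was 35.3% to 49.7% in the single lists, 38.8% for peaks found in both and 63.0% with wider arms that take up 66.7% of the length. The left arm held 44.3% of the peaks on the arms (38.1 to 50.6), but 50% to 53.4% in the single lists and 57.4% for peaks found in both. Gaps under 2 kb were 19.6% to 25.4% in the single lists. A stricter overlap and the better-scored 50% keep fewer peaks by construction. Peaks per Mb must also fall in the shorter single lists, in peaks found in both and after merging. Wider arms cannot hold a smaller share, and asking for 1 list alone cannot lower the share found or the share absent. For the other moves the cause was not tested. No paired analysis was possible because no result comes from a test, and the input libraries, numbered like the ChIP libraries, were not analysed here. With unknown depth, absence from a list does not show absence of enrichment.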

Other observations

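The longest stretch of III without a combined peak ran from 9091553 to 9393208, 301656 bp, with no replicate 1 peak and 1 replicate 2 peak inside it. The other 4 of the 5 longest, of 181185 to 191628 bp, also lay right of the middle, and those starting at 13084454 and 12688217 held no peak of any list. Peaks found in both lists lay a median of 59650.5 bp apart, with a longest gap of 834019 bp, and linking those with gaps under 2 kb left 90 places.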
